A study of Mus musculus with 18 samples.

Results

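The comparison described here is between RPE/choroid of wild-type mice and RPE/choroid of mice that carry the Abca4 L541P;A1038V knock-in on both chromosomes, all aged 30 days. RPE/choroid is the retinal pigment epithelium (RPE) together with the vascular choroid behind it, dissected as 1 tissue, so the RNA comes from a mixture of cells. The libraries were chosen by their genotype and tissue labels, which gives 6 of the 18 libraries of the study, 3 per genotype. The other libraries are 3 RPE/choroid libraries of Abca4-/- mice of the same age, called knockout below, and 9 retinal libraries of the same 3 genotypes. Per the labels every mouse was of a mixed 129SV and C57BL/6 background, and which strain's alleles a library carried at a gene was not analysed here. The labels do not state that a genotype's 3 libraries are from different animals, and p-values reflect only how far these libraries spread, which may be technical.

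ABCA4 is a lipid transporter of the rims of photoreceptor outer segment discs, where it flips retinal bound to phosphatidylethanolamine so that it can be reduced and returned to the visual cycle. Without that activity bisretinoids form in the discs and collect as lipofuscin in the RPE, which engulfs shed outer segment tips each day. ABCA4 is also made at a lower level in the RPE itself. L541P and A1038V form a complex allele that is known from Stargardt disease, an inherited macular dystrophy, and is known to impair folding of the protein, so genes of the unfolded protein response, of the retinoid cycle and of complement are those a reader would look at first in this tissue.

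The 2 codons that the knock-in allele changes are shown with their surroundings, because they are the difference between the genotypes that the labels name. Both stretches are reference coding sequence of Abca4 from the GENCODE M21 annotation of GRCm38, read 5′ to 3′ on the plus strand of chromosome 3, with the codon in capitals. The leucine codon lies at chr3:122102741-122102743 in exon 12 of 50, and the alanine codon lies at chr3:122126182-122126184 in exon 21. The base changes of the allele were not analysed here.
L541P: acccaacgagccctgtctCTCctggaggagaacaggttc
A1038V: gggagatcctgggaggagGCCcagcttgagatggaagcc

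The knock-in left the level of Abca4 RNA in RPE/choroid without a detected change. Abca4 stood at 36.7, 36.6 and 42.5 FPKM (fragments per kilobase of transcript, scaled to the library's mapped fragments) in knock-in libraries 0, 1 and 2. It stood at 35.4, 38.4 and 59.5 FPKM in wild-type libraries 0, 1 and 2. The groups overlapped, and only wild-type library 2 was well above the rest. The log2 difference, here and below knock-in minus wild-type from the counts, was -0.23 (SE 0.168, adjusted p = 0.888, edgeR), and 0.02 (SE 0.070, adjusted p = 0.967, edgeR) without wild-type library 2. Knockout libraries stood at 26.5, 25.6 and 26.2 FPKM, below every knock-in and wild-type library. The difference of knock-in from knockout was log2 0.56 (adjusted p = 0.246, edgeR). Knockout differed from wild-type by log2 -0.79 (adjusted p = 0.102, edgeR), and by -0.53 (adjusted p = 0.00512, edgeR) without wild-type library 2.

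Wild-type library 2 stood apart before any gene was tested. As a percentage of their level in wild-type retina, rod transcripts were at 9.70 in this library, against 0.396 and 0.717 in wild-type libraries 0 and 1 and 1.40, 0.729 and 0.804 in the knock-in libraries. The 18 rod markers, genes of phototransduction and of the outer segment, summed to 597, 406 and 456 FPKM in knock-in and to 294, 395 and 3610 FPKM in wild-type libraries. Cone markers showed the same picture, with 138 FPKM in wild-type library 2 and 18.3 to 24.7 FPKM in the other libraries of the comparison. The comparison of knock-in with wild-type was therefore fitted with and without this library. The libraries held from 14621635 to 30048059 assigned fragments, wild-type library 1 being the deepest and knock-in library 1 the shallowest. Knock-in library 2 was the only female among the RPE/choroid libraries by Xist and Ddx3y.

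**Figure D1:**
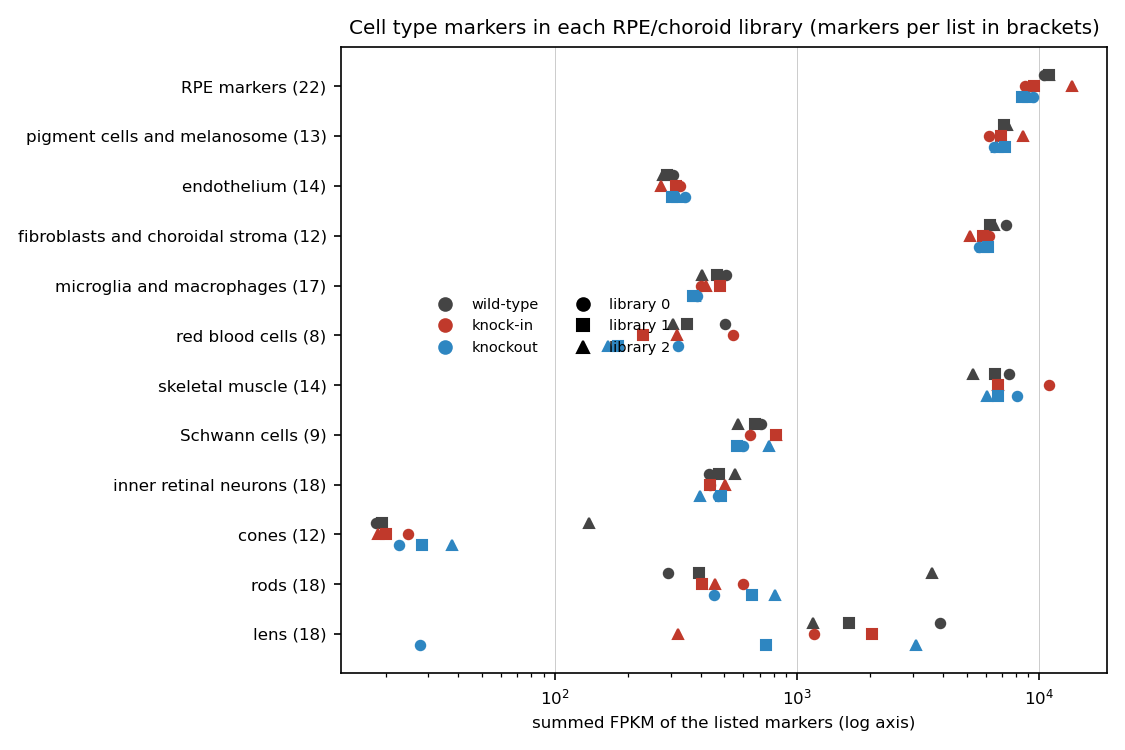
Summed FPKM of the markers of 12 cell types (horizontal log axis) in each RPE/choroid library, with colour for genotype and symbol for library number. The triangle of wild-type library 2 lies far to the right of the other libraries for rods (3610 FPKM) and cones (138 FPKM), while RPE markers of all libraries lie close together and lens markers are scattered in every genotype.

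The defining RPE markers were abundant in all 6 libraries and did not separate the genotypes. Rpe65, the retinoid isomerase, stood at 844, 1075 and 1602 FPKM in knock-in and 1077, 1175 and 1290 FPKM in wild-type libraries. All 22 RPE markers were tested, none passed in either fit, and their median log2 difference was -0.042, or -0.032 without wild-type library 2. The median of all genes was -0.004 and 0.001 in the same fits. In such bulk tissue fewer cells of a type and less RNA per cell cannot be told apart.

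Few genes passed the test of the genotypes. With all libraries, 10 of 15454 tested genes (0.0647%) had an adjusted p under 0.05 (edgeR, quasi-likelihood test), 5 higher and 5 lower in knock-in (0.0324% each). At an unadjusted p below 0.05 there were 854 genes, against 773 that no difference would give. Without wild-type library 2, 10 of 15575 genes (0.0642%) passed, 6 higher (0.0385%) and 4 lower (0.0257%), and 1226 genes were below an unadjusted p of 0.05 against 779. In the fits 9 genes were shared. Hbb-b2 passed only with all libraries and Wnt2b only without wild-type library 2, which makes 11 genes in all, and these 11 are described below. The common biological coefficient of variation fell from 0.154 to 0.0998 when wild-type library 2 was left out. In each of the 11 genes the knock-in and wild-type libraries did not overlap in counts scaled to library size, as in 9.86% of all tested genes (24.8% without wild-type library 2).

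**Figure D2:**
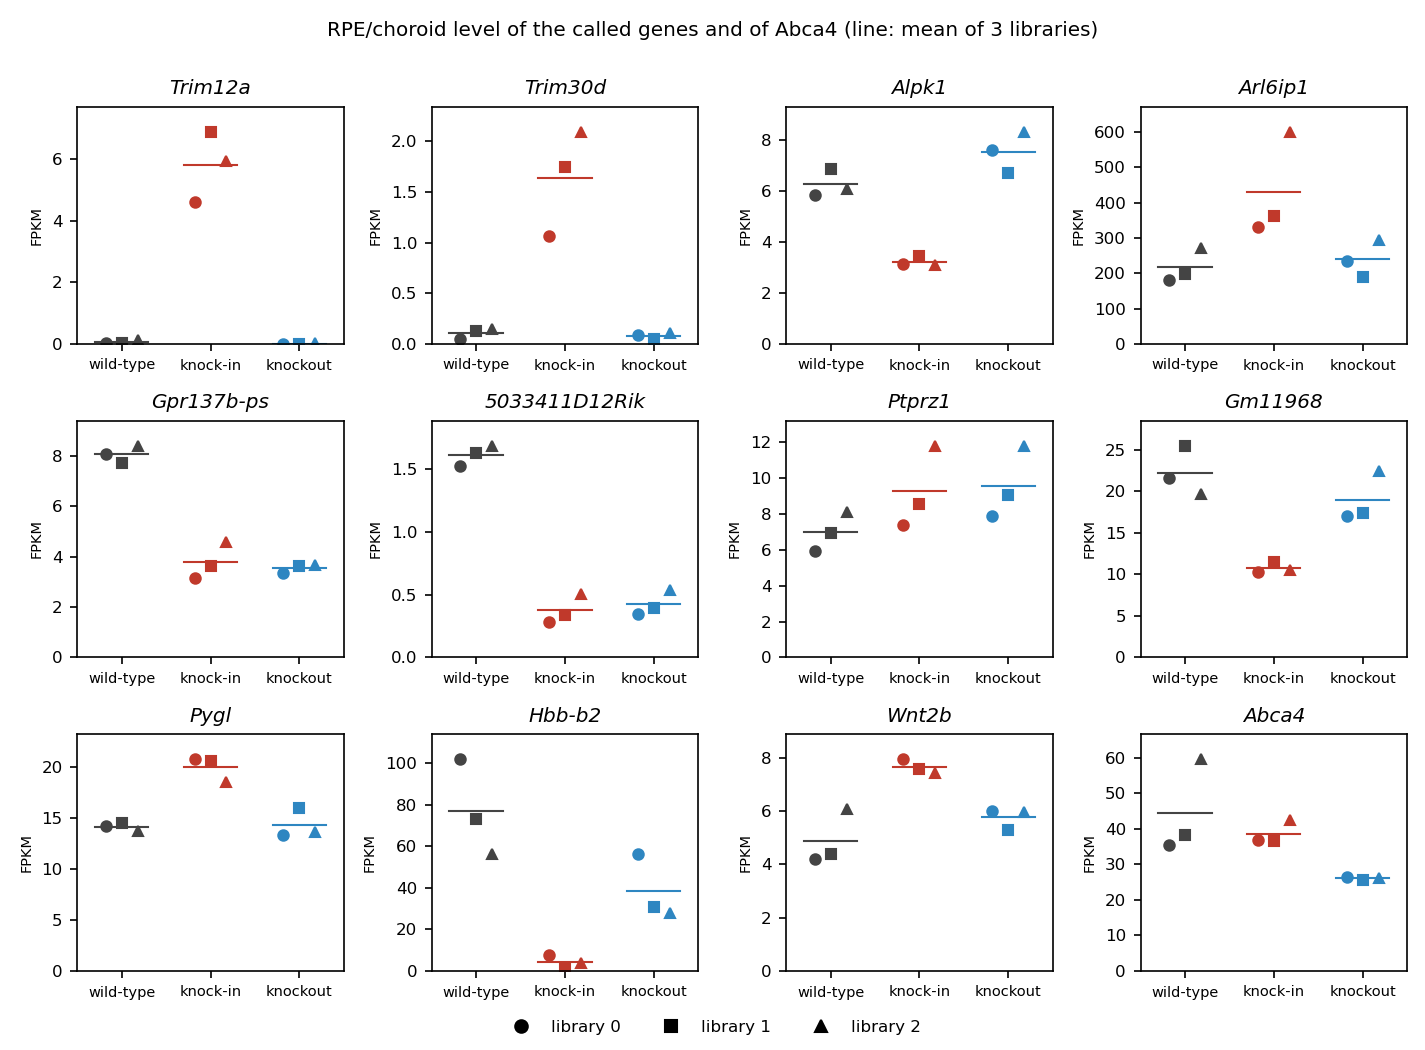
FPKM of the 11 called genes and of Abca4 in wild-type, knock-in and knockout RPE/choroid, 1 point per library (symbol for library number) with a line at the mean of 3 libraries. Trim12a and Trim30d are near 0 in wild-type and knockout and clearly present in knock-in libraries, while Gpr137b-ps and 5033411D12Rik are low in knock-in and knockout alike.

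The largest rises were in Trim12a and Trim30d, neighbouring genes of the tripartite motif (TRIM) family. Proteins of this cluster combine a RING ubiquitin ligase domain with B-box and coiled-coil parts, and relatives such as TRIM5 restrict retroviruses. Trim12a (mm9, chr7:111448411-111473352) stood at 4.61, 6.86 and 5.93 FPKM in knock-in libraries. It stood at 0.0300, 0.0396 and 0.133 FPKM in wild-type libraries. Those values rest on 180, 175 and 183 fragments in knock-in and on 1, 2 and 4 fragments in wild-type libraries, so the gene was close to the limit of detection in wild-type. Over the summed libraries the ratio per assigned fragment was 95.7, with a 95% interval of 46.1 to 239 (exact Clopper-Pearson, counting error only). The fitted log2 difference was 6.49 (SE 0.413, adjusted p = 4.76e-04, edgeR) and 7.23 (adjusted p = 2.20e-05, edgeR) without wild-type library 2. In knockout RPE/choroid Trim12a had 0, 0 and 1 fragments.

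Trim30d (mm9, chr7:111618529-111656363), of the Trim30 group of interferon-inducible TRIM genes, lies 145.2 kb from Trim12a. It stood at 1.06, 1.75 and 2.09 FPKM in knock-in libraries. It stood at 0.0517, 0.124 and 0.148 FPKM in wild-type and at 0.0841, 0.0526 and 0.109 FPKM in knockout libraries. Every knock-in library was thus several times above every other RPE/choroid library. The log2 difference was 3.999 (SE 0.322, adjusted p = 0.00215, edgeR) and 3.94 (adjusted p = 0.00240, edgeR) without wild-type library 2.

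The other tested genes of the cluster did not pass with edgeR. Trim34a stood at 4.91, 7.09 and 8.10 FPKM in knock-in and 3.79, 4.94 and 4.16 FPKM in wild-type libraries, so knock-in library 0 was just under wild-type library 1. Its log2 difference was 0.64 (adjusted p = 0.438, edgeR) and 0.53 (adjusted p = 0.305, edgeR) without wild-type library 2, whereas DESeq2 called it with all libraries (adjusted p = 0.0284) but not without that library (adjusted p = 0.0957). Trim12c, a close copy of Trim12a that lies 13.9 kb away, had a log2 difference of -0.20 (adjusted p = 0.875, edgeR), and of -0.28 (adjusted p = 0.396, edgeR) without wild-type library 2. Trim30a had log2 differences of 0.20 and 0.11, and Trim6 of -0.37 and -0.49, in the same order. Because these genes are near copies of each other, the authors' counting could have split reads between them, and the treatment of reads that map to several copies is not stated in the labels.

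The start regions of Trim12a and Trim30d are shown because both genes rose together, with a search for the core of the interferon-stimulated response element, GAAA followed by any 2 bases and GAAA again. Sequences are from RefSeq on GRCm38.p6, 100 bases before to 25 after the gene start, 5′ to 3′ on the minus strand, at chr7:104315471-104315595 for Trim12a and chr7:104507825-104507949 for Trim30d. Capitals mark the match, which is on the opposite strand and so reads TTTC, any 2 bases, TTTC.
Trim12a: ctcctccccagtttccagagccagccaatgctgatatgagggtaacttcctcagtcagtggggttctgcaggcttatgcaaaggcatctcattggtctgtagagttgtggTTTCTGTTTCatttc
Trim30d: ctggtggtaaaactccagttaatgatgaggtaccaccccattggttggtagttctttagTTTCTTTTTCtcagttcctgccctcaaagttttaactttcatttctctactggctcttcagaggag

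Searched on both strands in the 250 bases before to 50 after the start, the motif occurs in 3.44% of 32851 RefSeq promoters. Of the 11 called genes 8 had a promoter in the table (5033411D12Rik under its RefSeq name Sugct), and 3 of these held the motif, namely Trim12a, Trim30d and Arl6ip1. It is also present at the uncalled neighbours Trim12c, Trim30a and Trim34a. A match is a description of letters and not a bound site. The 19 tested genes of the interferon response list had 0 called members in either fit (edgeR; 0 and 1 at an unadjusted p under 0.05, and 0 by DESeq2 and limma), with a median log2 difference of 0.004, or -0.101 without wild-type library 2. Mx1, an interferon-induced GTPase, stood at 0.487, 0.691 and 0.568 FPKM in knock-in and 0.739, 1.09 and 0.455 FPKM in wild-type libraries.

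Alpk1, a cytosolic kinase that senses the bacterial sugar ADP-heptose and acts through the adaptor TIFA, was lower in knock-in RPE/choroid. Variants of its human counterpart are known in ROSAH syndrome, which includes retinal dystrophy. Alpk1 (mm9, chr3:127373228-127483445) stood at 3.12, 3.44 and 3.08 FPKM in knock-in libraries and at 5.84, 6.87 and 6.07 FPKM in wild-type libraries. In knockout libraries it stood at 7.61, 6.68 and 8.29 FPKM, so the knock-in libraries were the lowest of all 9. The fall was log2 -0.97 (SE 0.0979, adjusted p = 0.00855, edgeR), and -1.01 (adjusted p = 0.00446, edgeR) without wild-type library 2. Alpk1 lies 5.49 Mb from Abca4. Among 87 genes tested within 10 Mb of Abca4, Alpk1 was the only one called with edgeR (1.15%). DESeq2 also called F3 and Myoz2 in both fits, and these lie 0.309 and 0.826 Mb from Abca4. Tifa, which lies 9.4 kb from Alpk1, had a log2 difference of -0.02 (adjusted p = 0.984, edgeR), and of -0.09 (adjusted p = 0.862, edgeR) without wild-type library 2.

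Arl6ip1, a hairpin membrane protein that shapes endoplasmic reticulum tubules, was the most abundant of the 11 genes per transcript length. Arl6ip1 (mm9, chr7:125262404-125273139) stood at 331, 361 and 598 FPKM in knock-in libraries and at 181, 198 and 272 FPKM in wild-type libraries. Knockout libraries, at 236, 188 and 293 FPKM, lay in the wild-type range or just above it. Within knock-in, library 2 was far above the other 2 libraries, but no knock-in library reached down to wild-type. The rise was log2 0.98 (SE 0.0991, adjusted p = 0.00855, edgeR), and 0.98 (adjusted p = 0.0104, edgeR) without wild-type library 2. Rps15a, a neighbouring gene 2.7 kb away, had a log2 difference of 0.01 (adjusted p = 0.991, edgeR), and of -0.10 (adjusted p = 0.748, edgeR) without wild-type library 2.

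Pygl, the liver form of glycogen phosphorylase, which releases glucose units from glycogen, rose in knock-in. Pygl (mm9, chr12:71291802-71328670) stood at 20.7, 20.6 and 18.5 FPKM in knock-in, at 14.2, 14.4 and 13.7 FPKM in wild-type and at 13.3, 15.9 and 13.6 FPKM in knockout libraries. The spread within each genotype was small beside the gap. The rise was log2 0.50 (SE 0.0628, adjusted p = 0.0263, edgeR), with an adjusted p of 0.0459 without wild-type library 2 (edgeR).

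Ptprz1, a receptor tyrosine phosphatase of glial cells that binds pleiotrophin, rose by less. Ptprz1 (mm9, chr6:22825502-23002916) stood at 7.39, 8.56 and 11.8 FPKM in knock-in and at 5.93, 6.95 and 8.13 FPKM in wild-type libraries. On the FPKM scale knock-in library 0 lay below wild-type library 2, and the groups were separate only after the scaling of the count test. The rise was log2 0.39 (SE 0.0478, adjusted p = 0.0263, edgeR), and 0.37 (adjusted p = 0.0459, edgeR) without wild-type library 2. Knockout libraries stood at 7.85, 9.06 and 11.8 FPKM, close to knock-in.

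A pair of genes on chromosome 13 was lower in knock-in than in wild-type and about as low in knockout libraries. Gpr137b-ps (mm9, chr13:12706333-12742662), a pseudogene related to the lysosomal membrane protein gene Gpr137b, stood at 3.15, 3.61 and 4.57 FPKM in knock-in and at 8.06, 7.73 and 8.39 FPKM in wild-type libraries. Knockout libraries stood at 3.35, 3.63 and 3.68 FPKM, inside the knock-in range. The knock-in fall was log2 -1.13 (SE 0.118, adjusted p = 0.00952, edgeR), and -1.21 (adjusted p = 0.00371, edgeR) without wild-type library 2. The related gene Gpr137b stood higher in every knock-in library, at 22.9, 25.5 and 33.1 FPKM against 20.0, 20.0 and 20.4 FPKM, but its log2 difference of 0.39 did not pass with edgeR (adjusted p = 0.538, and 0.305 at log2 0.30 without wild-type library 2). DESeq2 called Gpr137b with all libraries (adjusted p = 0.0411) and not without that library (adjusted p = 0.112). Reads of these similar genes may have been split between them.

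5033411D12Rik (mm9, chr13:16949310-17786599), which RefSeq lists as Sugct, encodes a transferase of coenzyme A between succinate and glutarate. It stood at 0.279, 0.336 and 0.509 FPKM in knock-in and at 1.53, 1.63 and 1.69 FPKM in wild-type libraries. Knockout libraries, at 0.348, 0.397 and 0.535 FPKM, again matched knock-in. The knock-in fall was log2 -2.13 (SE 0.233, adjusted p = 0.0112, edgeR), and -2.17 (adjusted p = 0.0104, edgeR) without wild-type library 2. The depth was low, with 11, 9 and 14 fragments in knock-in and 52, 88 and 47 in wild-type libraries.

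Gm11968 (mm9, chr11:6005695-6100454), which RefSeq lists as a pseudogene of the ribosomal protein gene Rps15a, was lower in knock-in. It stood at 10.2, 11.5 and 10.5 FPKM in knock-in, 21.6, 25.5 and 19.6 FPKM in wild-type and 17.0, 17.4 and 22.4 FPKM in knockout libraries. The fall was log2 -1.03 (SE 0.129, adjusted p = 0.0263, edgeR), and -1.13 (adjusted p = 0.00446, edgeR) without wild-type library 2. Its reads can be shared with Rps15a, so the value is uncertain. The deposited position is the same as that of Nudcd3, so it is not particular to Gm11968. Nudcd3 had a log2 difference of 0.04 (adjusted p = 0.937, edgeR), and of 0.01 (adjusted p = 0.970, edgeR) without wild-type library 2.

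Hbb-b2, a beta chain of adult haemoglobin, was lower in knock-in, but its reads cannot be separated from those of its copy. Hbb-b2 (mm9, chr7:110961038-110962437) stood at 7.87, 1.51 and 3.62 FPKM in knock-in and at 102, 72.8 and 56.4 FPKM in wild-type libraries. Hbb-b1, which the deposited table places at the same locus, stood at 156, 66.3 and 88.7 FPKM in knock-in and at 0.00205, 0 and 5.90 FPKM in wild-type libraries. The copies thus stood in opposite order in the genotypes. Both copies lie 486 kb from Trim12a on the same chromosome. Of 8 other genes tested within 500 kb of Trim12a, 2 were called with all libraries (edgeR), namely Trim30d and Hbb-b2. Which strain's alleles the libraries carried over this stretch was not analysed. Whether the calls of Trim12a, Trim30d and Hbb-b2 are separate changes was therefore not tested. The fall of Hbb-b2 was log2 -4.14 (SE 0.460, adjusted p = 0.0355, edgeR), and without wild-type library 2 it did not pass (log2 -4.27, adjusted p = 0.0841, edgeR). Hbb-b1 did not pass with edgeR in either fit (adjusted p = 0.758 and 0.394). It did pass with limma on log2(FPKM + 1) in both fits (adjusted p = 0.0395 and 6.61e-05) and with DESeq2 without wild-type library 2 (adjusted p = 2.54e-12). Beta-s, a further beta-globin gene of the table, stood at 1032, 458 and 699 FPKM in knock-in and at 1332, 921 and 689 FPKM in wild-type libraries. Over the 8 listed red blood cell genes the summed level was 543, 231 and 319 FPKM in knock-in and 504, 350 and 307 FPKM in wild-type libraries, so it overlapped fully.

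Wnt2b, a secreted ligand of the Wnt pathway that is known from the RPE and the margin of the retina, passed with edgeR in the fit without wild-type library 2. Wnt2b (mm9, chr3:104747723-104764627) stood at 7.93, 7.57 and 7.41 FPKM in knock-in and at 4.21, 4.37 and 6.06 FPKM in wild-type libraries. The highest wild-type value was that of library 2. The rise was log2 0.80 (SE 0.0832, adjusted p = 0.00446, edgeR) without that library, and the difference was log2 0.63 (SE 0.125, adjusted p = 0.376, edgeR) with it. With all libraries it passed with DESeq2 (adjusted p = 0.00870) and with a term for rod transcripts (adjusted p = 0.00443, edgeR).

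**Figure D3:**
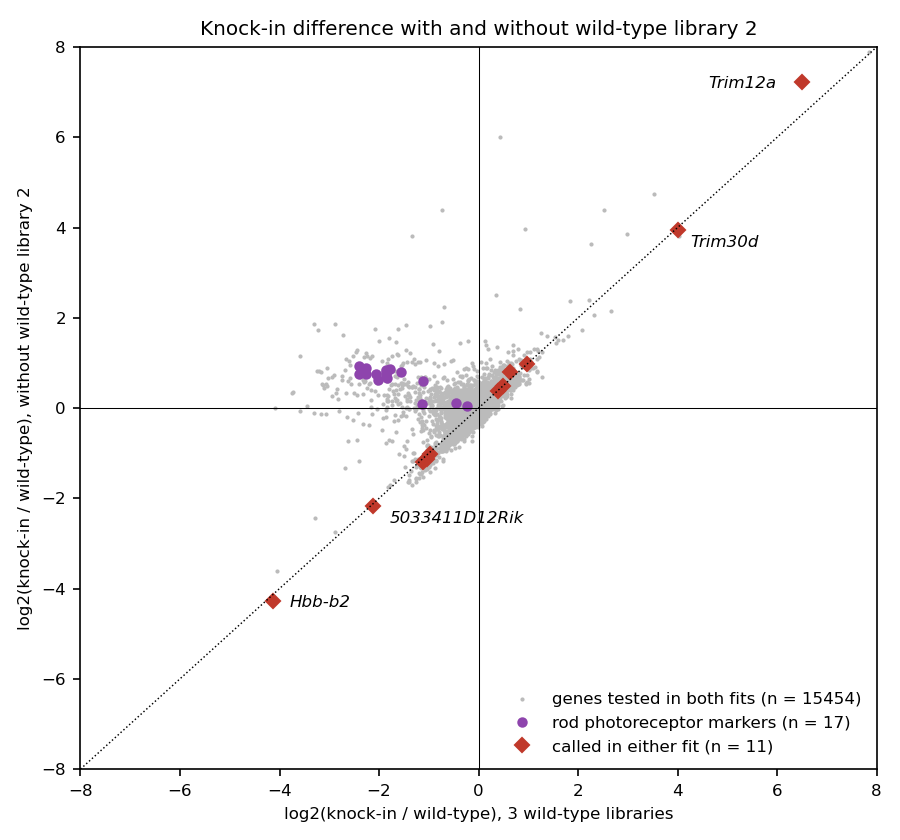
Log2 difference of each gene tested in both fits with all 3 wild-type libraries (horizontal) and without wild-type library 2 (vertical), with a dotted line where both are equal. The 11 called genes lie on or near that line, from Hbb-b2 at -4.14 and -4.27 to Trim12a at 6.49 and 7.23, whereas the 17 tested rod markers lie left of 0 on the horizontal axis and above 0 on the vertical axis.

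Leaving out wild-type library 2 reversed the direction of the rod markers and of most cone markers. The 17 tested rod markers had a median log2 difference of -1.852 with all libraries, 0 of 17 above 0, and of 0.756 without that library, 17 of 17 above 0. No rod marker passed in either fit (edgeR; 0 and 1 at an unadjusted p under 0.05, and 0 by DESeq2 and limma). Cone markers went from a median of -1.654, 0 of 11 above 0, to 0.389, 8 of 11 above 0, and markers of inner retinal neurons from -1.156 to 0.133. Retinoid cycle genes of photoreceptors moved alike: Rdh8, an outer segment retinol dehydrogenase, had a log2 difference of -2.87 with all libraries and 0.33 without wild-type library 2, and Rdh12 had -2.33 and 0.63.

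The knock-in RPE/choroid was compared directly with knockout RPE/choroid to see which of the 11 genes also separate these genotypes. In that comparison 70 of 15454 genes (0.453%) passed, 37 higher (0.239%) and 33 lower (0.214%) in knock-in (edgeR). Of the 11 genes above 7 also differed from knockout, with knock-in above knockout for Trim12a, Trim30d, Arl6ip1 and Pygl and below it for Alpk1, Gm11968 and Hbb-b2. The knock-in libraries are the same in both comparisons. Values were log2 8.90 for Trim12a (adjusted p = 7.08e-05, edgeR), 4.34 for Trim30d (adjusted p = 4.45e-04, edgeR) and -1.23 for Alpk1 (adjusted p = 4.88e-04, edgeR). Arl6ip1 stood at 0.82 (adjusted p = 0.00706), Pygl at 0.49 (adjusted p = 0.00934), Gm11968 at -0.81 (adjusted p = 0.0335) and Hbb-b2 at -3.08 (adjusted p = 0.0465), all from edgeR. The 4 others did not pass, at log2 0.08 for Gpr137b-ps, -0.20 for 5033411D12Rik, -0.05 for Ptprz1 and 0.41 for Wnt2b (adjusted p from 0.233 to 0.836, edgeR). Without wild-type library 2, which entered this fit through the shared spread and scaling, 190 genes passed against knockout. The 7 genes were again among them, and Wnt2b passed as well (log2 0.41, adjusted p = 0.0245, edgeR).

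For Gpr137b-ps, 5033411D12Rik and Ptprz1 the knockout also passed against the shared wild-type libraries. Its log2 differences were -1.21 (adjusted p = 0.00203), -1.92 (adjusted p = 0.00565) and 0.44 (adjusted p = 0.00359, edgeR). Beside them stand the knock-in values of -1.13, -2.13 and 0.39 given above. Without wild-type library 2 Wnt2b passed between knockout and wild-type too (log2 0.39, adjusted p = 0.0366, edgeR), beside 0.80 for knock-in in that fit. Over all genes 73 passed between knockout and wild-type RPE/choroid (0.472%; 0.22% higher and 0.252% lower). Without wild-type library 2 the number was 462 (2.97%; 1.39% higher and 1.57% lower, edgeR).

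Retinal libraries of the same genotypes show whether a difference was shared by the neighbouring tissue. In retina 39 of 14699 genes (0.265%; 0.143% higher and 0.122% lower) passed between knock-in and wild-type, and Alpk1 was the only one of the 10 genes tested there that did. Alpk1 stood at 0.635, 0.621 and 0.534 FPKM in knock-in retina and at 2.31, 2.80 and 2.51 FPKM in wild-type retina, a fall of log2 -2.07 (SE 0.126, adjusted p = 2.08e-06, edgeR). The fall in retina was the larger by log2 1.09 (SE 0.153, adjusted p of the interaction = 0.0100, edgeR), or 1.05 (adjusted p = 0.0238, edgeR) without wild-type library 2. Over all genes the difference between tissues passed for 0.0555% (0.037% higher and 0.0185% lower in RPE/choroid than in retina), and for 0.0367% (0.0245% and 0.0122%) without wild-type library 2. Trim30d stood at 0.125, 0.145 and 0.117 FPKM in knock-in and 0.110, 0.136 and 0.237 FPKM in wild-type retina, and its rise in RPE/choroid differed from retina by log2 4.23 (adjusted p = 0.00398, edgeR), or 4.20 (adjusted p = 0.00800, edgeR) without wild-type library 2. The rise of Arl6ip1 also differed, by log2 0.89 (adjusted p = 0.0100, and 0.0217 at log2 0.90 without wild-type library 2, edgeR), with 115, 99.4 and 99.0 FPKM in knock-in and 98.1, 91.0 and 94.6 FPKM in wild-type retina. Trim12a was listed at 0 in all 3 wild-type and 2 of the 3 knock-in retinal libraries, and at 0.467 FPKM in knock-in library 0.

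**Figure D4:**
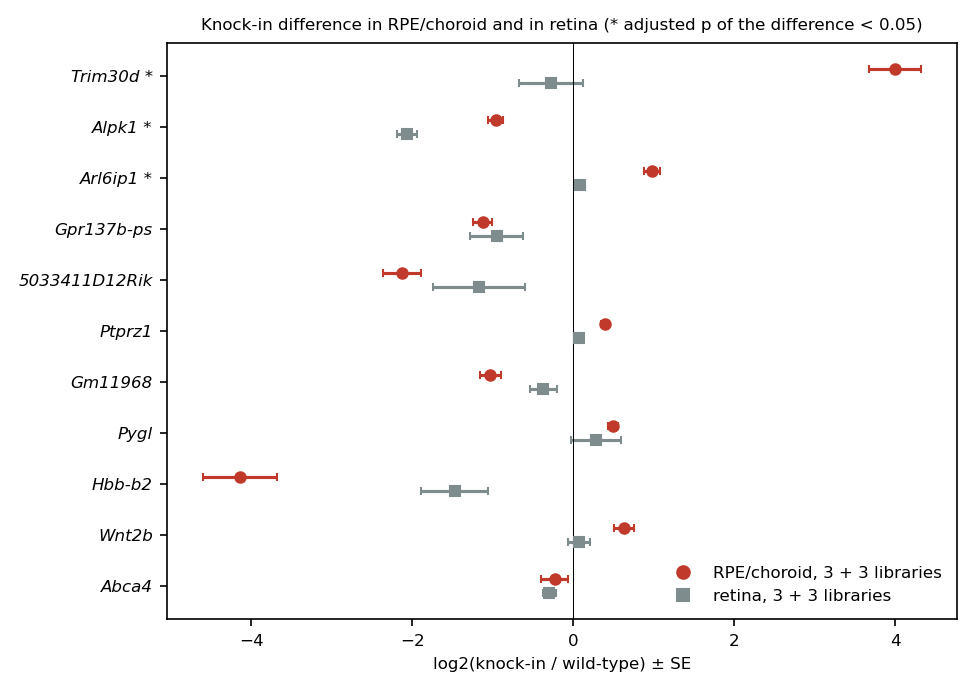
Log2 difference of knock-in from wild-type with its SE in RPE/choroid (circles) and retina (squares) for the 10 called genes tested in both tissues and for Abca4. The effects differ between tissues for the 3 starred genes, Trim30d (3.999 against -0.28), Alpk1 (-0.97 against -2.07) and Arl6ip1 (0.98 against 0.08).

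The gene lists ask whether a pathway moved without any single gene standing out. In 42 of 43 lists, which cover 25 pathways and 18 cell types, no member passed in either fit (edgeR), and the exception was the red blood cell list through Hbb-b2. Of all tested genes 0.0647% passed with all libraries and 0.0642% without wild-type library 2. By these shares lists of this size would rarely hold a call. At an unadjusted p under 0.05 there were 854 of 15454 and 1226 of 15575 genes (edgeR), the background for every such list count given here. DESeq2 called a list member in 1 list with all libraries and in 4 without wild-type library 2, the latter through Krt14, Hbb-b1 and Hbb-b2, Cd163 and Slc2a1. Pathway medians of the log2 difference ran from -0.157 to 0.132 with all libraries and from -0.183 to 0.052 without wild-type library 2.

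**Figure D5:**
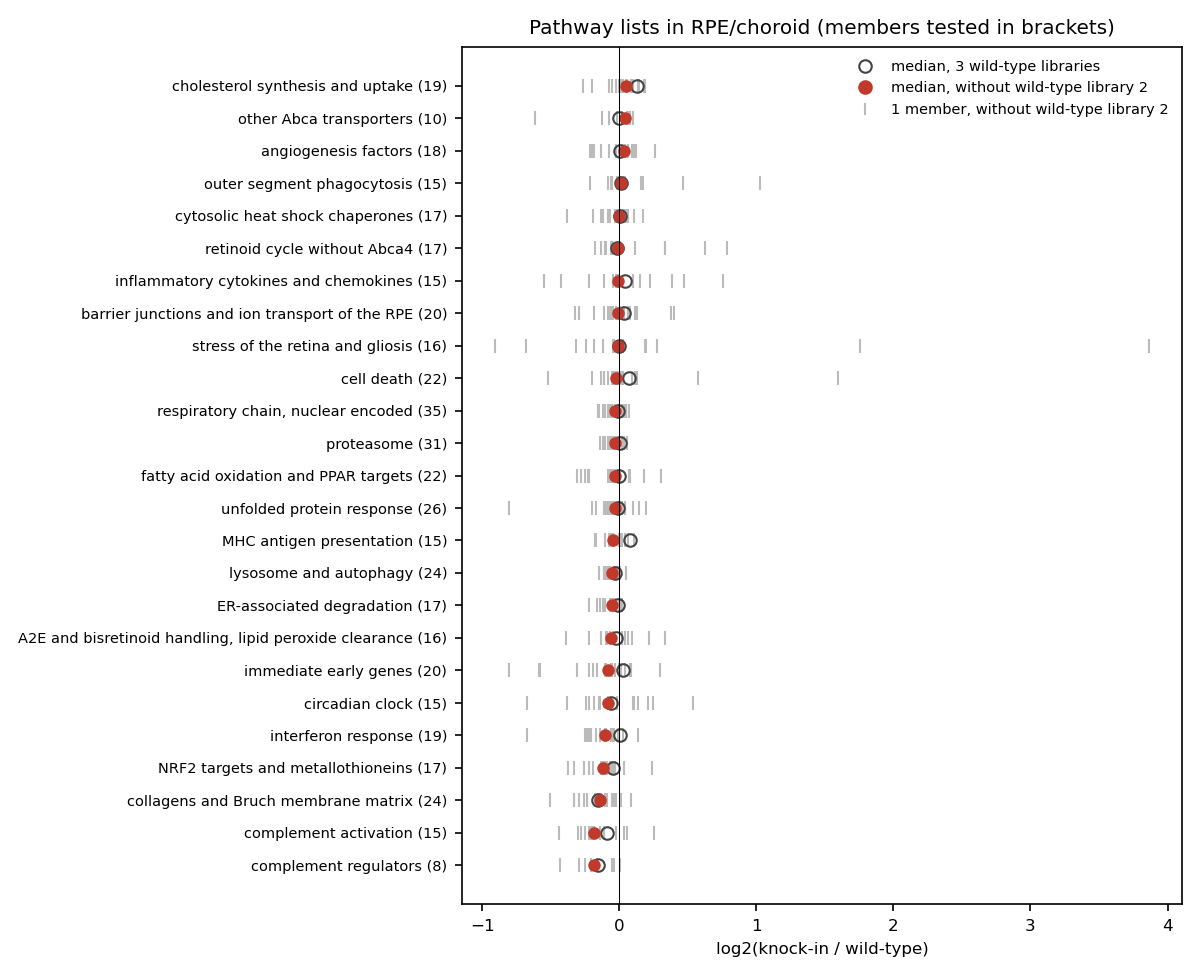
Log2 difference of knock-in from wild-type RPE/choroid for 25 pathway lists, with the median with all libraries (open circles), the median without wild-type library 2 (filled circles) and each member without that library (grey ticks). Medians lie within 0.2 of 0 for every list, and the member farthest out is Gfap at 3.87.

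Of the retinoid cycle, the exchange of chromophore between photoreceptors and RPE, no gene passed the test. All 17 genes other than Abca4 were tested and 0 passed in either fit (edgeR; 1 and 1 at an unadjusted p under 0.05, and 0 by DESeq2 and limma), with medians of -0.016 and -0.005. Lrat, which esterifies retinol for storage and isomerisation, had the smallest p, at 140, 139 and 212 FPKM in knock-in and 96.8, 136 and 187 FPKM in wild-type libraries. The groups overlapped, and the log2 difference was 0.27 (SE 0.106, adjusted p = 0.853, edgeR), or 0.33 (adjusted p = 0.521, edgeR) without wild-type library 2. Rlbp1, the retinaldehyde binding protein CRALBP, stood at 502, 482 and 520 against 435, 503 and 445 FPKM. Rdh5 and Rgr, which handle 11-cis and all-trans retinal in the RPE, had log2 differences of -0.07 and -0.13, or -0.10 and -0.18 without wild-type library 2.

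Genes of the unfolded protein response, the programme that cells start when proteins misfold in the endoplasmic reticulum, did not pass the test. All 26 were tested and 0 passed in either fit (edgeR; 1 and 2 at an unadjusted p under 0.05, and 0 by DESeq2 and limma), with medians of -0.007 and -0.031. Hspa5, the chaperone BiP, stood at 168, 191 and 194 FPKM in knock-in and 187, 206 and 186 FPKM in wild-type libraries. Ddit3, the death-promoting factor CHOP, stood at 24.4, 25.9 and 17.2 against 23.1, 27.2 and 17.0 FPKM. Both genes overlapped almost entirely between genotypes. Atf4, the translation-controlled factor upstream of Ddit3, had the smallest p with all libraries, at 96.1, 92.4 and 85.9 against 104, 102 and 95.3 FPKM (log2 -0.15, SE 0.0599, adjusted p = 0.853, and -0.17, adjusted p = 0.585, without wild-type library 2, edgeR). Herpud1, a membrane protein of the degradation machinery, had the smallest p without wild-type library 2, at log2 -0.20 (adjusted p = 0.575, edgeR).

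The genes that carry misfolded proteins to destruction held no call either. Of 17 genes of degradation from the endoplasmic reticulum 0 passed (edgeR; 3 and 2 at an unadjusted p under 0.05, and 0 by DESeq2 and limma), and their medians were -0.007 and -0.055. Ube2j1, a ubiquitin-conjugating enzyme of the reticulum membrane, stood at 29.2, 31.8 and 45.1 in knock-in and 33.4, 35.8 and 46.4 FPKM in wild-type libraries (log2 -0.12, adjusted p = 0.819, and -0.10, adjusted p = 0.642, without wild-type library 2, edgeR). The 31 proteasome genes had medians of 0.005 and -0.030, with a range of -0.143 to 0.056 without wild-type library 2. The 24 genes of lysosome and autophagy, which take up shed outer segments and lipofuscin, had medians of -0.029 and -0.055 with 2 and 4 above 0, and 0 of them passed in either fit (edgeR; 0 and 1 at an unadjusted p under 0.05, and 0 by DESeq2 and limma).

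Complement genes, which are known to respond to bisretinoids, had mostly negative differences, none of which passed. Of 15 genes of complement activation 0 passed (edgeR; 0 and 6 at an unadjusted p under 0.05, and 0 by DESeq2 and limma), and their medians were -0.090 with all libraries and -0.182 without wild-type library 2. C1qa, a subunit of the starting complex of the classical pathway, stood at 49.9, 44.8 and 41.6 FPKM in knock-in and 63.6, 50.02 and 35.3 FPKM in wild-type libraries (log2 -0.16, adjusted p = 0.881, edgeR). Its lowest value was in wild-type library 2, and without it the log2 difference was -0.28 (adjusted p = 0.473, edgeR). The macrophage list, which holds C1qa as well, had medians of -0.101 and -0.170 over 17 genes, and summed to 400, 478 and 422 FPKM in knock-in and 508, 468 and 403 FPKM in wild-type libraries. The part of macrophage number in the complement values was not tested. The 8 tested complement regulators, which protect host cells, had medians of -0.157 and -0.183, again with 0 called (edgeR; 0 and 2 at an unadjusted p under 0.05, and 0 by DESeq2 and limma).

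Collagens and other matrix genes of Bruch's membrane, the sheet between RPE and choroid, had mostly negative differences. Of 24 genes 1 lay above 0 with all libraries and 2 without wild-type library 2, and the medians were -0.154 and -0.140. None passed (edgeR; 3 and 2 at an unadjusted p under 0.05, and 0 by DESeq2 and limma). Nid1, which links laminin to collagen networks, stood at 54.5, 45.4 and 45.2 FPKM in knock-in and 61.8, 55.0 and 56.1 FPKM in wild-type libraries (log2 -0.28, SE 0.110, adjusted p = 0.856, and -0.33, adjusted p = 0.571, without wild-type library 2, edgeR). Fn1, fibronectin, stood at 34.4, 30.6 and 26.7 against 43.6, 31.6 and 37.1 FPKM (log2 -0.35, adjusted p = 0.819, and -0.33, adjusted p = 0.635, without wild-type library 2, edgeR). The 12 markers of fibroblasts and choroidal stroma moved with them, with medians of -0.118 and -0.194 and sums of 6180, 5820 and 5150 FPKM in knock-in against 7250, 6240 and 6460 FPKM in wild-type libraries. Whether stromal share plays a part in the matrix values was not tested.

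Markers of tissue next to the RPE/choroid varied between libraries. Skeletal muscle genes lay above 0 in all 14 cases, with medians of 0.338 and 0.334, yet 0 passed (edgeR; 8 and 2 at an unadjusted p under 0.05, and 0 by DESeq2 and limma). Their sum was 10900, 6740 and 6760 FPKM in knock-in and 7510, 6560 and 5340 FPKM in wild-type libraries, so knock-in library 0 was the highest. Tnnc2, the troponin C of fast muscle fibres, stood at 1100, 763 and 600 against 671, 672 and 477 FPKM. Lens crystallins and other lens genes summed to 1180, 2030 and 321 FPKM in knock-in and 3890, 1630 and 1160 FPKM in wild-type libraries, and had medians of -0.953 and -1.230 over 18 genes with 0 passing (edgeR; 0 and 0 at an unadjusted p under 0.05, and 0 by DESeq2 and limma). Endothelial markers of the choroid were even, with 329, 316 and 275 FPKM against 306, 291 and 280 FPKM.

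The authors' deposited table of the same comparison calls more genes. The number of significant genes in the authors' deposited table is 354, with 63 higher and 291 lower in knock-in. Of the genes called in the authors' deposited table, all 354 kept their direction in the fit with all libraries, and 176 did without wild-type library 2. Both rest on the same libraries, so the shared direction with all libraries is no separate evidence. Of the 354 genes, 89 had an unadjusted p under 0.05 in the fit with all libraries (edgeR). Of the 11 genes above, 8 are called in the authors' deposited table, and Trim12a (q = 0.0551), Ptprz1 (q = 0.0535) and Gm11968 (q = 0.285) are not.

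The 11 calls differed in how firmly they stood. Trim12a and Trim30d passed in all 10 alternative analyses of the comparison with all libraries and when each of the 6 libraries was left out in turn. In the fit without wild-type library 2, Trim30d missed the threshold with limma on log2(FPKM + 1) (adjusted p = 0.0639). Only these 2 calls were left without knock-in library 2 and only these 2 without wild-type library 1. Without knock-in library 0 the calls were 3, with Arl6ip1 as the third, and without knock-in library 1 they were 5, of which 3 (with Alpk1) are among the 10 reported. Alpk1 and Arl6ip1 passed in 6 of the 10 alternatives, Gpr137b-ps in 7 and 5033411D12Rik in 6. Ptprz1, Gm11968 and Pygl passed in 5 and Hbb-b2 in 6. Wnt2b, which was not called with all libraries, passed in 2 of them, and in 8 of the 10 alternatives of the fit without wild-type library 2, the fit that called it. With 1 library left out at a time, Alpk1 and Arl6ip1 passed in 3 of 6 fits and Gpr137b-ps and 5033411D12Rik in 2. Ptprz1, Gm11968, Pygl and Wnt2b passed in 1 of these 6 fits. Hbb-b2 passed in 0 of them (adjusted p up to 0.204, edgeR), and in 2 of the 10 alternatives of the fit without wild-type library 2. No alternative changed the direction of any of the 11 genes.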

How the data were processed

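RNA of RPE/choroid was sequenced from stranded total RNA libraries as 100 bp read pairs, per the labels' protocols. The submitters' processing notes name TopHat, Bowtie2, Cufflinks and mm9; their versions, the annotation and the use of strand in counting are not stated. The deposited table gives expected counts per gene and library, of which 98.4% are whole and the rest were rounded to whole numbers, and FPKM per library, both per the file headers. For each comparison the authors also deposited tables whose columns hold a p-value or a q-value. The deposited tables number libraries 0 to 2 and the labels 1 to 3, and nothing links these, so the numbers of the tables are used.

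Counts of the 9 RPE/choroid libraries were fitted together with edgeR 4.0.16 in R 4.3.3 (TMM scaling, filterByExpr, robust quasi-likelihood test), then again without wild-type library 2 (8 libraries). P-values were adjusted over all tested genes by the Benjamini-Hochberg method, and an adjusted p under 0.05 was called. The tissue difference was an interaction over 18 libraries. Fits were tested on simulated data. Alternatives were DESeq2 1.42.0, limma 3.58.1 on log2(FPKM + 1) and on log2(FPKM + 0.1), RLE scaling, no filter, a mean FPKM of at least 1, knock-in and wild-type libraries only, and terms for table number, rod transcripts and sex. Each library was also left out in turn, and a fit without knock-in library 2 and wild-type library 2 was added after seeing the data. That fit is the same as leaving knock-in library 2 out of the fit without wild-type library 2. With 1 female library, the sex term in effect leaves out knock-in library 2 as well. Deviations from the genotype means correlated little at equal table numbers (-0.140, 0.106 and -0.049). Wild-type library 2 enters these means, so the check cannot tell whether libraries of equal number share a batch. FPKM of Arl6ip1, for example, was highest in library 2 of each genotype (598 in knock-in, 272 in wild-type and 293 in knockout). No pair of libraries of a genotype was a copy (r from 0.967 to 0.995).

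The comparison, the 43 gene lists and the tests were chosen with earlier results of these data known. Named are Abca4, every called gene, and list members with the smallest p or a defining role, the latter chosen after their values were seen. Genes of the TRIM and globin clusters and neighbours of called genes were also chosen after seeing the data. Positions are those of the deposited tables (mm9), while sequences come from GRCm38. Of 25 gene names turned into dates, 24 were restored. Exact intervals cover counting error only.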

Additional observations from a re-analysis of the deposited data

Results flagged for a closer look

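The knock-in difference was not the same in RPE/choroid and retina for 9 of 16222 genes by the test of the difference itself (edgeR, 0.0555% of genes), and 6 passed without wild-type library 2. Values are the log2 difference in RPE/choroid minus that in retina. For Trim30d it was 4.23 (adjusted p = 0.00398), with log2 3.999 in RPE/choroid and -0.28 in retina. For Alpk1 it was 1.09 (adjusted p = 0.0100), with log2 -0.97 in RPE/choroid and -2.07 in retina. For Arl6ip1 it was 0.89 (adjusted p = 0.0100), with log2 0.98 in RPE/choroid and 0.08 in retina.

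In 3 genes the value was negative and knock-in stood above wild-type in retina. For Ssbp4 it was -1.34 (log2 -0.04 in RPE/choroid, 1.29 in retina), for Gpsm3, a regulator of G protein signalling in leukocytes, it was -1.32 (-0.19 and 1.13), and for Isyna1, the enzyme that makes inositol phosphate from glucose phosphate, it was -1.03 (0.08 and 1.10). For Filip1, Filip1l and Pdp2, a phosphatase that activates pyruvate dehydrogenase, it was 0.72, 0.71 and 0.66, with small positive values in RPE/choroid (0.28, 0.23 and 0.42) and negative ones in retina (-0.46, -0.49 and -0.25). Without wild-type library 2 the differences of Isyna1 (adjusted p = 0.0645), Pdp2 (0.0808) and Filip1l (0.0808) no longer passed (edgeR). Groups of 3 libraries are too small for a test of single outlying values.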

How the results depend on the processing

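With all libraries, the 10 calls between knock-in and wild-type became 44 with DESeq2, 5 and 2 with limma on log2(FPKM + 1) and log2(FPKM + 0.1), 5 with the compared libraries only, 2 with a sex term and 32 in the added fit without knock-in library 2 and wild-type library 2, and 2 to 14 when each library was left out in turn. With the table number as a replicate block there were 4 calls (Trim12a, Trim30d, Gpr137b-ps and Hbb-b2), and 13 without wild-type library 2. Whether libraries of equal number share a batch is not stated in the labels, and the check of pairing does not settle it. Without wild-type library 2, the 10 calls became 70 with DESeq2, 2 and 3 with limma, 32 with a sex term and 7 to 32 when a further library was left out; 32 is the value without knock-in library 2, the only female. The 70 calls against knockout became 313 with DESeq2 and 29 to 190 on leaving libraries out, where 29, 33 and 34 are without knock-in libraries 0, 1 and 2 and 190 is without wild-type library 2. The 9 differences between tissues became 37 with DESeq2 and 4 to 10 on leaving libraries out. RLE scaling, no filter and the FPKM minimum kept each of these counts within 1.5 times, as did the rod term, run for knock-in against wild-type only. No called gene changed direction. Abca4 went from -0.23 to 0.02 and Rdh8 from -2.87 to 0.33 without wild-type library 2, and Rdh8 to 0.46 in the added fit. The cause was not tested. With 3 libraries a genotype, of which 1 wild-type library carried retinal RNA and 1 knock-in library was of the other sex, genes that miss the threshold are not shown to be alike.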

Other observations

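The fit without knock-in library 2 and wild-type library 2, chosen after seeing the data, called 32 genes (17 higher and 15 lower in knock-in, edgeR), and 10 of the 11 genes of the report were among them. Besides Trim12a, 5 genes rose there by over log2 4, namely Cartpt, Vwa5b2, Rph3a, Gfap and Spnb4, and the values of the last 3 follow. Gfap, the intermediate filament of astrocytes and reactive Müller glia, stood at 11.8, 19.2 and 0.572 FPKM in knock-in, 0.314, 0.971 and 2.21 FPKM in wild-type and 12.6, 10.9 and 8.93 FPKM in knockout libraries. Spnb4, a spectrin of axon initial segments and nodes, stood at 2.22, 3.28 and 0.109 FPKM in knock-in and 0.0665, 0.131 and 0.458 FPKM in wild-type libraries. In knockout libraries Spnb4 stood at 2.83, 2.39 and 1.22 FPKM. Rph3a, a synaptic vesicle protein, stood at 2.24, 4.497 and 0.239 FPKM in knock-in and 0.0843, 0.177 and 2.99 FPKM in wild-type libraries. In knockout libraries Rph3a stood at 2.73, 2.52 and 2.18 FPKM. In these 3 genes knock-in libraries 0 and 1 were high and knock-in library 2 was low, and none passed with edgeR with all libraries (adjusted p = 0.861, 0.875 and 0.946) or without wild-type library 2 (0.617, 0.573 and 0.579). DESeq2 without wild-type library 2 called Spnb4 (adjusted p = 0.0470) and Rph3a (adjusted p = 0.0241), and Gfap missed (adjusted p = 0.0876). Wild-type retina stood above every RPE/choroid library in these genes. Its libraries held 26.5, 22.4 and 23.5 FPKM of Gfap, 10.6, 13.8 and 8.76 of Spnb4, and 25.9, 29.4 and 36.5 of Rph3a. Knock-in retinal libraries held 18.87, 17.95 and 14.99 FPKM of Gfap, below the 19.2 FPKM of knock-in RPE/choroid library 1. For Spnb4 and Rph3a knock-in retina also stood above every RPE/choroid library. Rod transcripts stood at 1.40% and 0.729% of their wild-type retina level in knock-in RPE/choroid libraries 0 and 1. They stood at 9.70% in wild-type RPE/choroid library 2, which held 2.21 FPKM of Gfap, 0.458 of Spnb4 and 2.99 of Rph3a. Whether retinal RNA plays a part was not tested.

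Among the lower calls of that fit were the ribosomal protein genes Rps28 and Rps29 and the histone gene Hist1h4h. Rps28 stood at 735, 829 and 721 FPKM in knock-in and 923, 946 and 596 FPKM in wild-type libraries, and Rps29 at 1627, 1598 and 1559 against 1914, 1891 and 1469 FPKM. For both genes the lowest of the 6 values was that of wild-type library 2. Hist1h4h, a histone H4 gene, stood at 181, 165 and 208 against 275, 244 and 260 FPKM.

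DESeq2 called 28 genes both with all libraries and without wild-type library 2, 17 higher and 11 lower in knock-in, and 10 genes were common to it and the fit above. F3, tissue factor, which starts blood clotting, stood at 48.2, 61.3 and 64.2 FPKM in knock-in and 37.0, 44.2 and 37.4 FPKM in wild-type libraries (log2 0.54, adjusted p = 3.34e-04 with DESeq2 and 0.220 with edgeR). Fxyd6, a regulator of the sodium pump, stood at 156, 140 and 139 against 81.3, 97.6 and 96.9 FPKM (log2 0.62, adjusted p = 0.00107 with DESeq2 and 0.376 with edgeR). Myoz2, a calcineurin-binding protein of muscle Z-discs, was lower at 26.2, 24.1 and 24.8 against 37.2, 40.5 and 34.1 FPKM (adjusted p = 7.31e-04 with DESeq2 and 0.220 with edgeR), while the muscle genes Ryr1 and Jph2 were higher. F3 and Myoz2 lie 0.309 and 0.826 Mb from Abca4 on chromosome 3. In F3, Fxyd6 and Myoz2 the libraries of the genotypes did not overlap, as in 9.86% of all tested genes (24.8% without wild-type library 2). These genes were chosen after their values were seen.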
